A study of Disanthus cercidifolius subsp. longipes with 9 samples.

Results

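Aquaporins were followed in developing leaves of *Disanthus cercidifolius* var. *longipes*, an endangered deciduous shrub of the family Hamamelidaceae. A transcript cluster was taken as an aquaporin when the first Swiss-Prot name matched to it held the word aquaporin. This rule found 28 of the 24385 clusters in the table: 10 PIP, 12 TIP, 5 NIP and 1 SIP cluster. Clusters that share the number before the point can be transcripts of 1 gene, so their counts were also summed within a number, which gave 15 aquaporin cluster numbers (5 PIP, 5 TIP, 4 NIP and 1 SIP) of 14455 in all.

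Leaves from branch tips of nursery plants were sequenced as mRNA at 3 stages, F1 (young leaves), F2 (the next stage) and F3 (the last and most mature stage), with 3 libraries each. Neither the labels nor the methods name a treatment or transgene, and the labels date the samplings to 20, 23 and 26 July, whereas the methods of the study place them in other months. Each stage was taken on its own date, so stage and date cannot be told apart. The leaves came from several trees, but which tree gave which library is not stated, so the p-values measure the spread between these libraries. Counts over the table were 10353544 to 12253518 per library at F1, 9581197 to 14284676 at F2 and 8657054 to 10311846 at F3. Chlorophyll a-b binding proteins and the small subunit of ribulose bisphosphate carboxylase, which mark green leaf tissue, were abundant in every library, with a summed FPKM of at least 34157. FPKM is the fragment count scaled to transcript length and library size.

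Aquaporins are membrane channels of the major intrinsic protein family that let water and small neutral solutes pass. Plasma membrane intrinsic proteins (PIPs) sit mostly in the outer cell membrane and tonoplast intrinsic proteins (TIPs) in the membrane of the vacuole, and in growing leaves both carry the water that enlarging cells take up. Nodulin 26-like intrinsic proteins (NIPs) include channels for boric acid, silicic acid and other small solutes, and small basic intrinsic proteins (SIPs) lie in the endoplasmic reticulum in *Arabidopsis*.

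The names rest on matches to other plants: 16 of the 28 clusters matched an *Arabidopsis* protein, 5 a rice, 2 a maize, 4 a banana and 1 an alfalfa protein. The Pfam major intrinsic protein domain was found in 19 clusters and a KEGG aquaporin ortholog in 24. Some names were weakly supported. Cluster-41697.0 (PIP1-1) had neither, Cluster-33845.1 (NIP6-1) carried a Pfam domain of unknown function, and Cluster-56170.1 (TIP1-3) was 7464 bases long with a KEGG match to spatacsin. The PIP1-3 matches Cluster-42421.1, Cluster-42421.2, Cluster-42421.4 and the abundant Cluster-42421.5 had the KEGG ortholog but not the major intrinsic protein domain. Several clusters of number 56425 joined a TIP1 match with one to a very-long-chain hydroxyacyl-CoA dehydratase, an enzyme of fatty acid elongation. Of the 28 clusters, 26 reached a mean of 1 FPKM in at least 1 stage. None was removed from the tests. By its name, the table holds the clusters that the study called differentially expressed between its stages, so the members are not a full count of the aquaporins of this plant. They were selected on the same libraries that are tested here, so the p-values are not those of an unselected set. Shares and medians over all clusters or all numbers describe this table and not every transcript of the leaf.

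The aquaporins as a whole were most abundant in young leaves and least abundant in mature ones. In F1 leaves their summed FPKM averaged 3008 ± 144, in F2 leaves 1772 ± 37.6 and in F3 leaves 695 ± 38.0 (SD, n = 3 each). As a share of the table's counts this was 0.527%, 0.284% and 0.133%. The table did not hold the same part of each library. It held 47.2% to 47.3% of the library size implied by FPKM at F1, 47.4% to 47.6% at F2 and 39.2% to 39.4% at F3. Relative to that library size, the aquaporin counts thus fell further at F3 than the shares of the table show. The PIPs made up most of the summed aquaporin FPKM. They had 2546 ± 136, 1618 ± 39.0 and 616 ± 31.4 FPKM at F1, F2 and F3, and the stages did not overlap. The TIPs summed to 352 ± 7.23, 107 ± 0.489 and 56.0 ± 4.28 FPKM, the NIPs to 77.7 ± 2.39, 24.8 ± 1.44 and 10.9 ± 1.92 FPKM, and the single SIP to 32.2 ± 1.90, 22.4 ± 1.43 and 12.2 ± 1.00 FPKM. In all 4 types the 3 libraries of each later stage lay below those of each earlier stage. In bulk tissue, fewer cells of a type and less RNA per cell cannot be told apart.

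**Figure D1:**
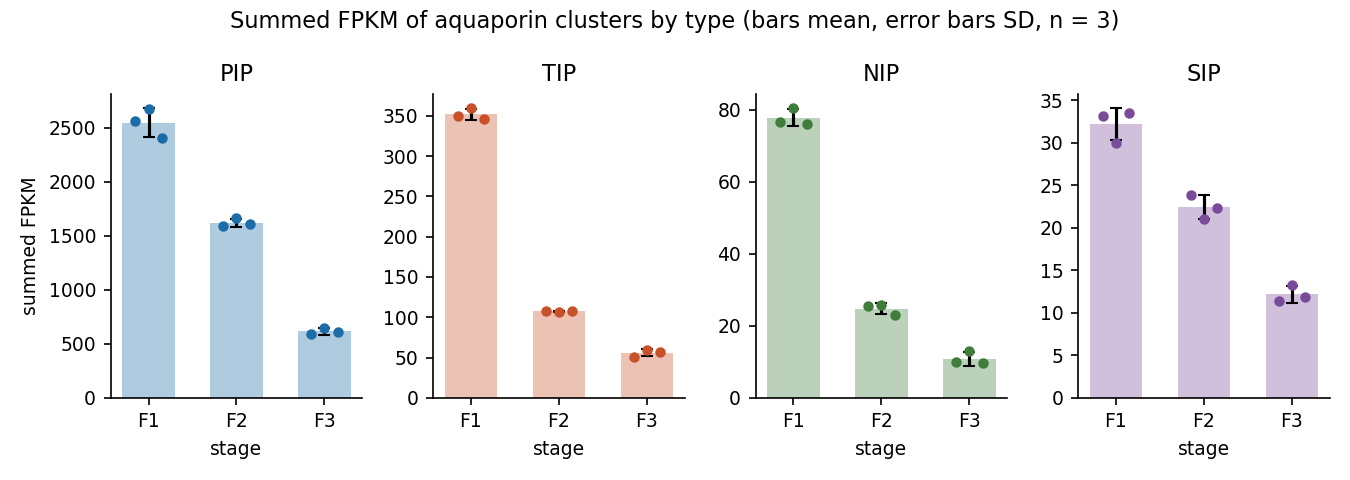
Summed FPKM of the PIP, TIP, NIP and SIP clusters at stages F1, F2 and F3, with a point per library, bars at the mean and error bars of 1 SD (n = 3), each panel on its own linear axis from 0. The F3 libraries lie lowest in every panel, at a mean of 616 FPKM for PIP and 12.2 FPKM for SIP.

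The timing differed between types as a description of these sums. The TIP sum at F2 was 0.306 of that at F1, and the NIP sum 0.319 of it, while the PIP sum kept 0.635 and the SIP 0.697. Between F2 and F3 the PIP sum at F3 was 0.381 of that at F2, against 0.521 for TIP. The ratio of TIP to PIP within a library was 0.137, 0.134 and 0.144 at F1, 0.0679, 0.0643 and 0.0671 at F2, and 0.0872, 0.0915 and 0.0935 at F3. It was thus lowest in the 3 libraries of F2. These comparisons share libraries, each stage entering both of its contrasts.

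For single clusters the quasi-likelihood test of edgeR was run over the whole table, and a cluster was called when its Benjamini-Hochberg adjusted p was under 0.05 and its fold change was at least 2. In F2 against F1, 1 aquaporin cluster rose (22% of all clusters in the table rose) and 15 fell (18.8% of all in the table fell), with 12 not called. Their median log2 fold change was −1.11, against 0.17 over the table. In F3 against F2, 4 rose (29.5% of all rose) and 17 fell (35.8% of all fell), with a median of −1.38 against −0.37. In F3 against F1, 2 rose (35% of all rose) and 20 fell (34.7% of all fell), with a median of −1.90 against 0.00. Clusters with 0 counts in a stage stay on the same side of these medians when set to their lower bounds.

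The same held by cluster number. In F2 against F1, 0 of 15 numbers rose (22.6% of all numbers) and 8 fell (21.2% of all). All 15 log2 fold changes were negative there, so that 0 numbers rose at an unadjusted p under 0.05 as well, and 0 by DESeq2. In F3 against F2, 2 rose (29.3% of all) and 11 fell (36.8% of all). In F3 against F1, 2 rose (33.5% of all) and 12 fell (36.7% of all), and the median log2 fold change was −3.32, against −0.16 over all numbers. The 2 that rose against F1 were number 34740 (PIP2-2) and number 56170 (TIP1-3). In number 56170 the called cluster was the weakly supported Cluster-56170.1, while Cluster-56170.0 was not called (0.73), and limma on FPKM does not call the sum (0.88 and 0.92 with pseudocounts of 1 and 0.1). FPKM was highest at F1 for 22 of the 28 clusters (78.6%, against 30.3% of the table) and followed the order F1 over F2 over F3 in 18 (64.3%, against 23.6%).

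**Figure D2:**
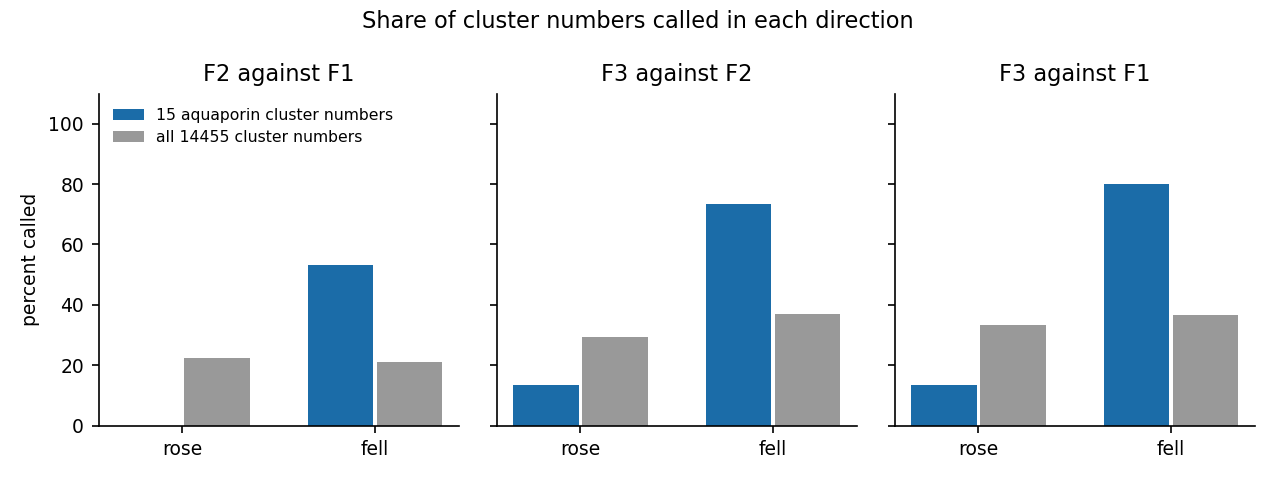
Percent of cluster numbers called as rising or falling in each comparison, for the 15 aquaporin numbers (blue) and all 14455 numbers of the table (grey), on a linear axis from 0. In F3 against F1, 12 of 15 aquaporin numbers fell, against 36.7% of all numbers.

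By type, 5 of 10 PIP, 7 of 12 TIP, 3 of 5 NIP and 0 of 1 SIP clusters fell in F2 against F1, where 18.8% of all clusters fell. In F3 against F2 the counts of falling clusters were 6 of 10, 6 of 12, 4 of 5 and 1 of 1, and in F3 against F1 they were 8 of 10, 7 of 12, 4 of 5 and 1 of 1, while 35.8% and 34.7% of all clusters fell in these comparisons. The rising clusters were 1 PIP in each comparison, 3 TIP in F3 against F2 and 1 TIP in F3 against F1, where 22%, 29.5% and 35% of all clusters rose in F2 against F1, F3 against F2 and F3 against F1. The 3 of 12 rising TIP clusters (25.0%) lay near the 29.5% of the table. Of the 12 TIP clusters, 5 belong to number 56425.

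PIP1 channels, which in maize reach the plasma membrane together with PIP2 partners, were mostly represented by number 42421, with 6 clusters named PIP1-2 or PIP1-3. Its summed FPKM was 2056, 2168 and 1911 at F1, 1212, 1286 and 1236 at F2, and 535, 590 and 559 at F3. It was the most abundant aquaporin number at every stage, and its stages did not overlap. The log2 fold change was −0.78 ± 0.06 in F2 against F1 (SE, below the fold threshold), −1.32 ± 0.06 in F3 against F2 (fell) and −2.10 ± 0.06 in F3 against F1 (fell, adjusted p = 2.4e-12 by edgeR).

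**Figure D3:**
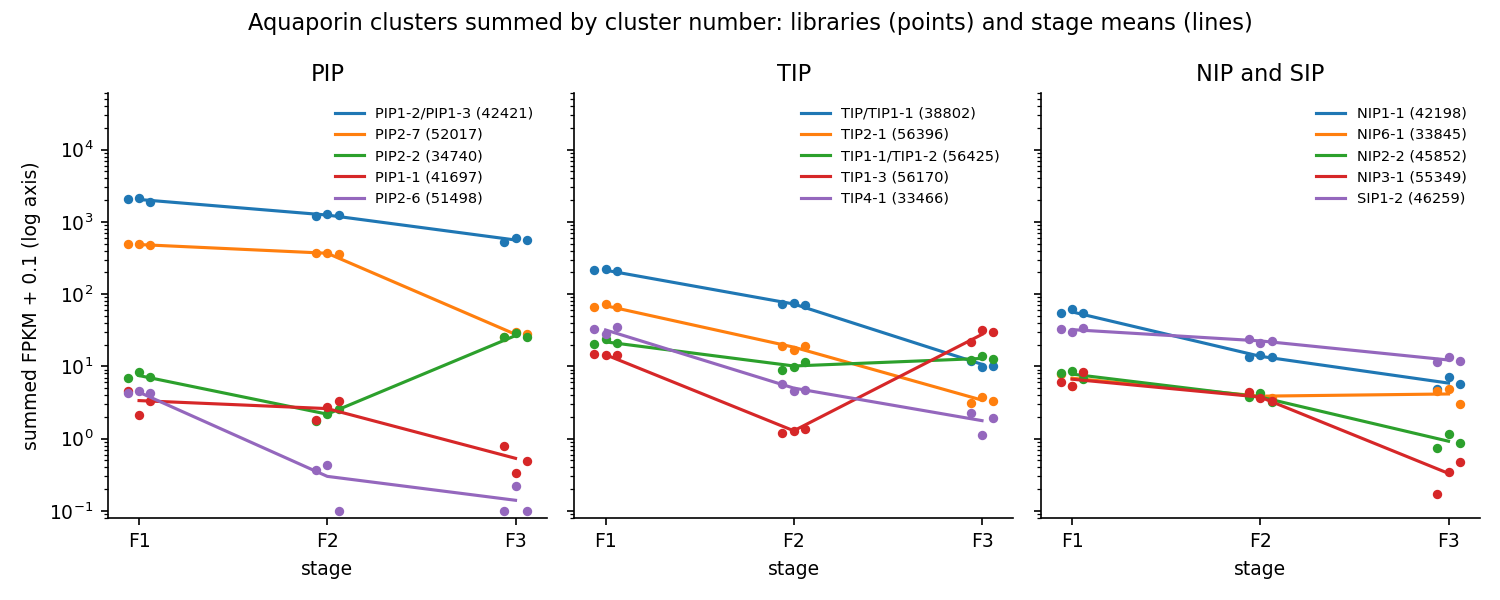
Summed FPKM plus 0.1 of the 15 aquaporin cluster numbers at F1, F2 and F3 on a log axis, with a point per library and a line through the stage means, in panels for PIP, TIP, and NIP with SIP. Most lines run downward, whereas PIP2-2 (34740) and TIP1-3 (56170) are lowest at F2 and highest at F3.

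Cluster-42421.5, named PIP1-3, held the most counts of any cluster of number 42421 at each stage, and had 682, 682 and 652 FPKM at F1, 292, 316 and 301 at F2, and 144, 158 and 161 at F3. It fell in F2 against F1 (log2 fold change −1.10 ± 0.06) and in F3 against F2 (−1.15 ± 0.06). The F3 against F2 call is lost where the fold drops just under 2: with DESeq2, with relative log expression size factors (−0.97), with library sizes implied by FPKM and with limma. Cluster-42421.6, named PIP1-2, is 521 bases long and had the highest FPKM of the number, at 1070, 1157 and 963 at F1, 722, 777 and 743 at F2, and 298, 347 and 317 at F3. Its change in F2 against F1 was −0.44 ± 0.10 and not called, and it fell in F3 against F2 (−1.39 ± 0.11).

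The split of counts inside the number differed between stages. Cluster-42421.6 had 0.352 ± 0.0291, 0.557 ± 0.00813 and 0.471 ± 0.0347 counts per count of Cluster-42421.5 at F1, F2 and F3 (SD, n = 3), and the stages did not overlap. Cluster-42421.5 held 58.2% of the number's counts at F1, 48.5% at F2 and 52.0% at F3. How reads were divided between clusters of 1 number is not given in the sources used here, so the single clusters are less certain than their sum. The FPKM of Cluster-42421.5 implies a length of 1234 bases, while the table lists 2946. Implied lengths were well under the listed ones in other clusters too. Among them were Cluster-38802.1 (1327 of 1888 bases), Cluster-52017.0 (1051 of 1564), Cluster-45852.0 (1012 of 1644) and Cluster-56396.1 (1115 of 1585).

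The third abundant cluster of the number, Cluster-42421.0 (PIP1-2), had 285, 312 and 280 FPKM at F1, 189, 186 and 185 at F2, and 86.8, 80.1 and 75.9 at F3, and it fell in F3 against F2 (−1.37 ± 0.08). The minor Cluster-42421.2 and Cluster-42421.4 fell in F2 against F1 (−1.50 ± 0.16 and −1.12 ± 0.29, the call of Cluster-42421.4 being lost without F1 replicate 1 at −0.98) and were not called in F3 against F2 (−0.21 ± 0.16 and −0.11 ± 0.30). With limma on log2(FPKM + 1) the F2 against F1 call of Cluster-42421.4 is lost as well (−0.79). Cluster-42421.1 had 48, 62 and 10 counts at F2 and 0 counts in every library of F1 and F3. With a floor of 3 counts per library it was at least 12.1-fold higher in F2 than in F1 and at least 13.2-fold lower in F3 than in F2. It was the 1 aquaporin cluster that rose in F2 against F1, and it made up 0.186% of the number's counts at F2. The remaining PIP1 match, the weakly supported Cluster-41697.0, had 4.47, 2.05 and 3.26 FPKM at F1, 1.73, 2.60 and 3.18 at F2 and 0.68, 0.23 and 0.39 at F3, and it fell in F3 against F2 (−2.68 ± 0.48).

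PIP2 channels conduct water on their own, and 3 clusters were named after them. The most abundant, Cluster-52017.0, matched PIP2-7 of *Arabidopsis*, a water channel of the plasma membrane, in Swiss-Prot and a probable PIP2-8 in KEGG. It had 488, 493 and 479 FPKM at F1, 371, 370 and 363 at F2, and 25.3, 29.8 and 27.9 at F3. Its mean FPKM at F2 was thus 0.757 of that at F1, and it was far lower at F3, with no overlap between stages. The log2 fold change was −0.36 ± 0.07 in F2 against F1 (not called), −3.90 ± 0.08 in F3 against F2 (fell, adjusted p = 1.8e-09 by edgeR) and −4.25 ± 0.08 in F3 against F1, a mean FPKM 17.6-fold lower in F3.

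Cluster-34740.0, matched to PIP2-2 in Swiss-Prot but to PIP2-7 in KEGG, went the other way at the last stage. The sources thus differ on which cluster is PIP2-7, and the Swiss-Prot names are used here. It had 6.91, 8.19 and 6.98 FPKM at F1, 1.68, 2.10 and 2.46 at F2, and 25.4, 28.8 and 25.5 at F3. Libraries of F2 were the lowest and those of F3 the highest. It fell in F2 against F1 (log2 fold change −1.79 ± 0.17), rose in F3 against F2 (3.52 ± 0.18, adjusted p = 2.7e-07 by edgeR) and rose in F3 against F1 (1.73 ± 0.16).

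The PIP2 total therefore changed in composition. Cluster-34740.0 held 1.48% ± 0.126 of the PIP2 FPKM in F1 leaves, 0.562% ± 0.111 in F2 leaves and 49.0% ± 1.17 in F3 leaves (SD, n = 3). The ratio of PIP2 to PIP1 FPKM within a library was 0.242, 0.233 and 0.256 at F1, 0.308, 0.289 and 0.295 at F2, and 0.0946, 0.0995 and 0.0954 at F3. It was highest at F2 and lowest at F3, without overlap. Cluster-51498.0, named after PIP2-6 of rice, was low, with 83, 107 and 100 counts at F1, 6, 9 and 0 at F2 and 0, 3 and 0 at F3. It fell in F2 against F1 (−4.34 ± 0.87), was not called in F3 against F2 (−2.21 ± 1.22) unless F2 replicate 3 or F3 replicate 2 was left out (−2.71 and −5.29), and fell in F3 against F1, where its depth-scaled counts were 105-fold lower in F3 than in F1 (95% interval 35.7 to 514, counting error alone). As a number it was also called in F3 against F2 at an adjusted p of 0.048 by edgeR, and that call is lost in most alternatives, among them the removal of any F1 library.

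**Figure D4:**
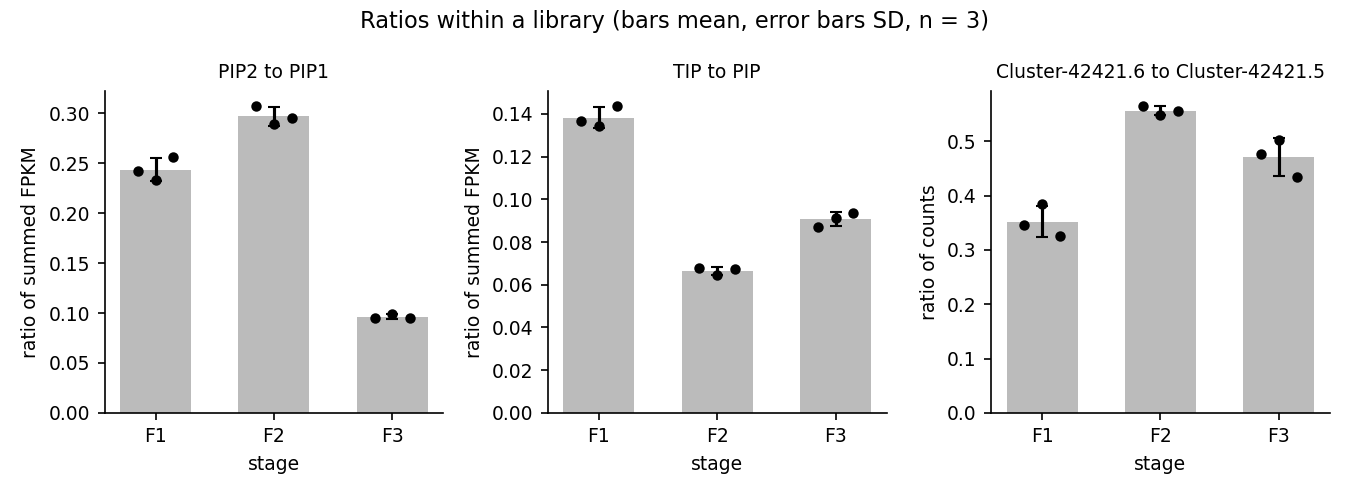
Ratios within a library at F1, F2 and F3, with a point per library, bars at the mean and error bars of 1 SD (n = 3), on linear axes from 0: PIP2 to PIP1 FPKM, TIP to PIP FPKM, and counts of Cluster-42421.6 to Cluster-42421.5. PIP2 to PIP1 is lowest at F3 (mean 0.0965), TIP to PIP is lowest at F2 (mean 0.0665), and the cluster ratio is highest at F2 (mean 0.557).

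Among the TIPs, number 38802 was the most abundant at F1 and F2. Its main cluster, Cluster-38802.1, matched a TIP of alfalfa in Swiss-Prot and TIP1-1 in KEGG. TIP1 channels carry water across the tonoplast and are abundant in enlarging cells of *Arabidopsis*. The cluster had 206, 214 and 202 FPKM at F1, 66.6, 68.1 and 65.5 at F2, and 11.4, 8.60 and 9.30 at F3. Every stage lay below the one before it. It fell in F2 against F1 (log2 fold change −1.58 ± 0.08), in F3 against F2 (−2.94 ± 0.09) and in F3 against F1 (−4.53 ± 0.10, adjusted p = 1.1e-09 by edgeR), where the mean FPKM was 21.2-fold lower in F3. Its partner Cluster-38802.0 had 8.92, 5.42 and 7.31 FPKM at F1, 6.35, 6.82 and 5.60 at F2 and 0.55, 1.03 and 0.82 at F3. Its change in F2 against F1 was −0.15 ± 0.27 and not called, with overlapping libraries, and it fell in F3 against F2 (−3.13 ± 0.30).

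TIP2-1, which in *Arabidopsis* also passes ammonia, was matched by Cluster-56396.0 and Cluster-56396.1. Cluster-56396.1 had 51.3, 54.6 and 54.4 FPKM at F1, 18.7, 15.5 and 19.0 at F2, and 3.03, 3.67 and 3.23 at F3, and it fell in all 3 comparisons (−1.54 ± 0.11, −2.58 ± 0.13 and −4.13 ± 0.13 in F2 against F1, F3 against F2 and F3 against F1). Cluster-56396.0 had 388, 560 and 348 counts at F1, 16, 38 and 5 at F2 and 0 in every F3 library. Cluster-56396.0 thus became scarcer beside its neighbour of the same number: its counts per count of Cluster-56396.1 were 0.296 ± 0.0675 at F1 and 0.0376 ± 0.0316 at F2. It was at least 157-fold lower in F3 than in F1 and at least 6.42-fold lower in F3 than in F2, with a floor of 3 counts per library. TIP4-1, matched by Cluster-33466.0, had 32.7, 28.3 and 34.5 FPKM at F1, 5.59, 4.53 and 4.59 at F2 and 2.18, 1.03 and 1.81 at F3. Its larger step came between F1 and F2 (−2.63 ± 0.22) and its smaller one between F2 and F3 (−1.72 ± 0.24), and it fell in both.

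TIP1-3, a channel best known from pollen in *Arabidopsis*, showed the same dip at F2 as PIP2-2. Cluster-56170.0 had 14.4, 13.9 and 14.1 FPKM at F1, 0.96, 0.98 and 1.13 at F2, and 19.5, 29.0 and 27.3 at F3. Libraries of F2 lay far below both other stages, and the F3 libraries above those of F1. It fell in F2 against F1 (log2 fold change −3.75 ± 0.20) and rose in F3 against F2 (4.48 ± 0.20, adjusted p = 1.3e-07 by edgeR), while its change of 0.73 ± 0.17 in F3 against F1 was below the fold threshold. It held 4.01% ± 0.139 of the TIP FPKM at F1, 0.952% ± 0.0844 at F2 and 44.8% ± 5.88 at F3, while Cluster-38802.1 held 58.9%, 62.1% and 17.7%. The long Cluster-56170.1, whose aquaporin name was weakly supported, had 54, 49 and 63 counts at F1, 28, 37 and 22 at F2 and 418, 464 and 398 at F3, and it rose in F3 against F1 (2.82 ± 0.17). The sum of number 56170 rose in F3 against F1 (1.31 ± 0.12), and limma on FPKM put it below the fold threshold (0.88 with a pseudocount of 1).

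Number 56425, in which TIP1-1 and TIP1-2 matches are joined with dehydratase matches, was not called as a sum in any comparison by edgeR. Its FPKM was 20.4, 23.9 and 21.0 at F1, 8.91, 9.62 and 11.6 at F2 and 12.3, 13.7 and 12.4 at F3, with the lowest values at F2. The log2 fold changes were −0.78 ± 0.12 in F2 against F1, 0.26 ± 0.12 in F3 against F2 and −0.53 ± 0.12 in F3 against F1. By limma on FPKM the sum did pass the threshold in F2 against F1, at −1.05 with a pseudocount of 1 and −1.11 with 0.1. Its main cluster, Cluster-56425.1, with 14.2, 19.0 and 16.4 FPKM at F1, 6.39, 6.64 and 8.87 at F2 and 9.48, 7.18 and 9.07 at F3, fell in F2 against F1 (−1.14 ± 0.19), a call lost without F1 replicate 2 (−0.998), and in F3 against F1 (−1.08 ± 0.19), lost without F1 replicate 2 (−0.93) or F3 replicate 2 (−0.99). That F3 against F1 call is also lost with library sizes implied by FPKM (−0.95) and with limma (−0.87 and −0.94 with pseudocounts of 1 and 0.1). The F2 and F3 libraries of Cluster-56425.1 overlapped. Cluster-56425.9 had 159, 31 and 89 counts at F1, 0 in every F2 library and 176, 299 and 232 at F3. With the same floor, it was at least 31.7-fold lower in F2 than in F1 and at least 71.7-fold higher in F3 than in F2. Cluster-56425.0 had 24, 112 and 110 counts at F1, 119, 103 and 0 at F2 and 16, 0 and 0 at F3. Its fall in F3 against F1 (−4.03 ± 1.60, adjusted p = 0.041 by edgeR) is lost without F3 replicate 2 (adjusted p = 0.099) and without any of 5 other libraries. With limma on log2(FPKM + 1) that call is lost as well (−0.65). Cluster-56425.5, at 0.29 to 1.11 FPKM over the libraries, fell in F3 against F2 (−1.17 ± 0.33), a call lost without F3 replicate 1 (−0.93). Limma loses that call too (−0.42 and −0.94 with pseudocounts of 1 and 0.1). Cluster-56425.7, at 0.50 to 3.31 FPKM, was not called in any comparison. Without F3 replicate 2, which held 64 of its 87 counts at F3, it is called as falling in F3 against F1 (−2.28) and in F2 against F1 (−1.23), and in F2 against F1 also when those stages alone are fitted (−1.28).

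**Figure D5:**
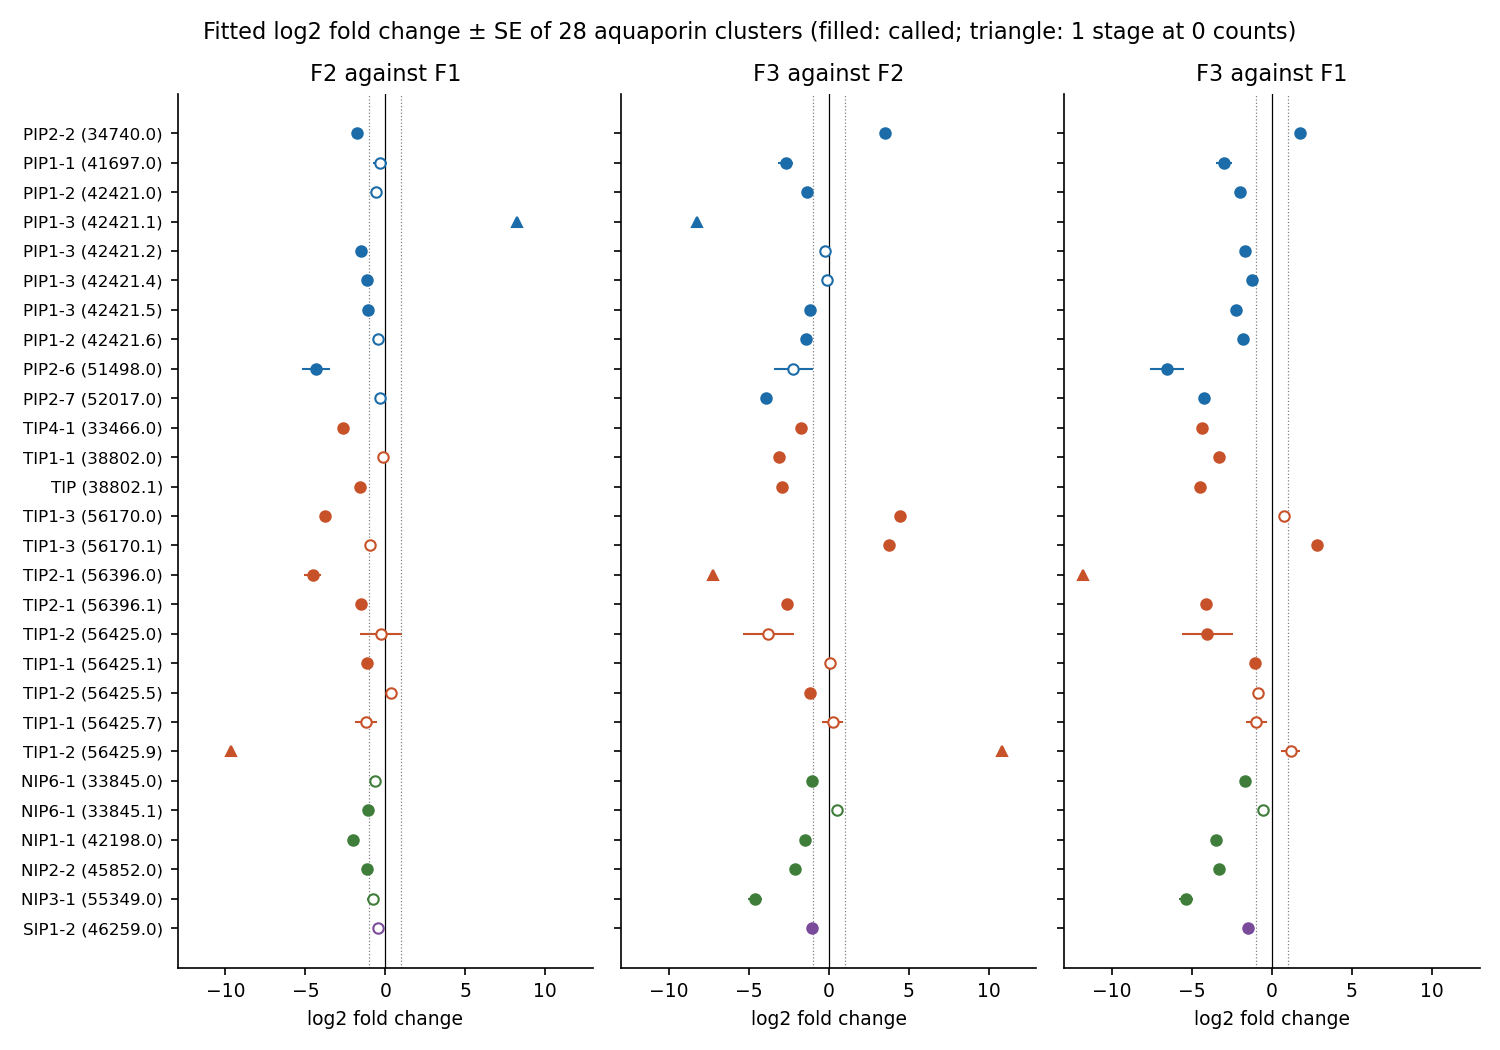
Fitted log2 fold change of the 28 aquaporin clusters in the 3 comparisons, with bars of 1 SE, filled symbols for called clusters, open symbols for others and triangles where 1 stage had 0 counts, whose fitted values are no measured size. Dotted lines mark a fold of 2. In F3 against F1, 20 clusters lie left of 0 as called and 2 lie right of it, PIP2-2 (Cluster-34740.0) and TIP1-3 (Cluster-56170.1).

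The NIPs were less abundant than the PIPs and TIPs. NIP1-1 (Cluster-42198.0) held the largest share of their FPKM, 72.9% ± 2.90 at F1, 55.3% ± 2.47 at F2 and 53.1% ± 5.05 at F3 (47.9% in F3 replicate 1). It had 54.9, 61.3 and 53.9 FPKM at F1, 13.5, 14.3 and 13.3 at F2, and 4.75, 6.99 and 5.57 at F3, with no overlap between stages. It fell in F2 against F1 (log2 fold change −2.02 ± 0.11), in F3 against F2 (−1.49 ± 0.12) and in F3 against F1 (−3.51 ± 0.12, adjusted p = 1.7e-08 by edgeR).

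NIP2-2, a silicic acid channel in maize, was matched by Cluster-45852.0, with 7.97, 8.58 and 6.61 FPKM at F1, 3.70, 4.20 and 3.10 at F2 and 0.64, 1.04 and 0.78 at F3. It fell in all 3 comparisons (−1.18 ± 0.23, −2.13 ± 0.24 and −3.31 ± 0.25 in F2 against F1, F3 against F2 and F3 against F1). The F2 against F1 call is lost with limma on log2(FPKM + 1) (−0.90). NIP3-1, a boric acid channel in rice and chosen for mention after its values were seen, was matched by Cluster-55349.0. It had 216, 235 and 344 counts at F1, 181, 177 and 113 at F2 and 2, 7 and 11 at F3. In F2 against F1 it was not called (−0.78 ± 0.34, adjusted p = 0.085 by edgeR), although the F2 libraries lay below those of F1. It fell in F3 against F2 (−4.60 ± 0.44).

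NIP6-1, which channels boric acid in young shoot tissue of *Arabidopsis*, was matched by a cluster with the aquaporin domain and one without it. Cluster-33845.0, which has the domain, had 3.25, 2.33 and 3.61 FPKM at F1, 2.02, 1.84 and 1.76 at F2 and 1.31, 1.00 and 0.76 at F3. It fell in F3 against F1 (−1.70 ± 0.27) and in F3 against F2 (−1.03 ± 0.27). The F3 against F2 call is lost with other scalings (−0.85 with relative log expression size factors), without F2 replicate 1 (−0.97) and without F3 replicate 3 (−0.90). Cluster-33845.1 had 4.51, 2.97 and 3.62 FPKM at F1, 2.15, 1.77 and 1.77 at F2 and 3.15, 3.81 and 2.12 at F3, and it fell in F2 against F1 (−1.10 ± 0.31), a call lost without F1 replicate 1 (−0.96) or F2 replicate 3 (−0.91). Limma loses that call too (−0.69 and −0.91 with pseudocounts of 1 and 0.1). The sum of number 33845 fell in F3 against F1 (−1.09 ± 0.22). That call is lost with library sizes implied by FPKM (−0.96), with limma on FPKM (−0.63 and −0.74 with pseudocounts of 1 and 0.1) and without F3 replicate 3 (−0.91).

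SIP1-2 (Cluster-46259.0), the 1 SIP match, had 33.1, 30.0 and 33.4 FPKM at F1, 23.9, 21.1 and 22.3 at F2, and 11.4, 13.3 and 11.8 at F3, with no overlap between stages. Its log2 fold change was −0.47 ± 0.11 in F2 against F1 (not called), −1.05 ± 0.11 in F3 against F2 (fell) and −1.52 ± 0.11 in F3 against F1 (fell, adjusted p = 3.1e-06 by edgeR). The F3 against F2 call is lost with DESeq2 and relative log expression size factors (both −0.87) and with library sizes implied by FPKM (−0.89). Limma (−0.83 and −0.88 with pseudocounts of 1 and 0.1) and a fit of those stages alone (−0.90) lose it too. So does leaving out F2 replicate 1 (−0.99).

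Other genes of water and ion movement did not share one direction. Their counts stand beside the whole table, in which 22% of clusters rose and 18.8% fell in F2 against F1, 29.5% rose and 35.8% fell in F3 against F2, and 35% rose and 34.7% fell in F3 against F1. Proton pumps of the vacuole, which energise solute uptake into it, numbered 32 clusters, of which 10 rose and 3 fell in F2 against F1, 8 rose and 8 fell in F3 against F2, and 16 rose and 6 fell in F3 against F1. Their summed FPKM was 437 at F1, 434 at F2 and 270 at F3. Among them the most abundant, the 16 kDa proteolipid subunit of the V-type ATPase (Cluster-41470.0), was not called in any comparison (−0.91 ± 0.07 in F3 against F1), and the vacuolar pyrophosphatase (Cluster-36863.0) fell in F3 against F2 (−1.76 ± 0.07). Of 9 plasma membrane proton pumps, 1 rose and 0 fell in F2 against F1, 1 rose and 5 fell in F3 against F2, and 3 rose and 4 fell in F3 against F1. Of 49 potassium channels and transporters the counts were 11 and 7, 8 and 19, and 17 and 16 in the same order, and of 21 tonoplast sugar and anion transporters 8 and 4, 5 and 10, and 7 and 6. The shares of the potassium list lay near those of the table, apart from the 16.3% that rose in F3 against F2.

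Expansins, proteins that loosen the cell wall during enlargement, were also mostly called as falling: of 15, 1 rose and 10 fell in F2 against F1, 1 rose and 9 fell in F3 against F2, and 1 rose and 10 fell in F3 against F1. Over all clusters 18.8%, 35.8% and 34.7% fell. The median log2 fold changes of the expansins were −1.73, −1.88 and −3.36, against 0.17, −0.37 and 0.00 over the table. Expansin-A1 (Cluster-47986.0) averaged 1271 FPKM at F1, 333 at F2 and 4.87 at F3 and fell in F3 against F1 (−8.15).

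Markers of cell types that a leaf holds also moved between the stages, and their lists were read in the same fit. Over all clusters 22% rose and 18.8% fell in F2 against F1, 29.5% rose and 35.8% fell in F3 against F2, and 35% rose and 34.7% fell in F3 against F1. Markers of dividing cells, such as cyclins, histones and replication licensing factors, were highest in young leaves, as were those of xylem. Of 41 markers of dividing cells, 1 rose and 31 fell in F2 against F1, and their summed FPKM was 787 to 921 at F1, 216 to 229 at F2 and 286 to 294 at F3. Although the sum was higher at F3 than at F2, 6 of them rose and 13 fell in F3 against F2. Their median log2 fold change there was −0.74, against −0.37 over the table. Of 25 markers of xylem and secondary wall, 0 rose and 21 fell in F3 against F1, with 176 to 201, 86.4 to 93.5 and 38.6 to 44.2 FPKM at F1, F2 and F3. As summed FPKM, phloem markers were lowest at F2, whereas guard cell and epidermis markers were lowest at F3. Of 14 phloem markers, 0 rose and 10 fell in F2 against F1, and 2 rose and 5 fell in F3 against F2. In F3 against F1, 4 rose and 8 fell, and the sums were 112 to 129, 43.3 to 50.9 and 53.3 to 59.8 FPKM at F1, F2 and F3. All 3 guard cell markers fell in F3 against F1, with 28.7 to 33.3, 23.1 to 24.6 and 3.63 to 4.75 FPKM. Of 54 trichome and epidermis markers, 7 rose and 37 fell in F3 against F1, with 1739 to 1753, 725 to 745 and 224 to 244 FPKM. Most of that list are TRICHOME BIREFRINGENCE-like proteins, which modify wall polysaccharides, and of the 12 others 1 rose and 11 fell. Mesophyll markers, which stand for the photosynthetic machinery, were highest at F2 as a sum. Of 47 mesophyll markers, 14 rose and 2 fell in F2 against F1, and 0 rose and 43 fell in F3 against F2. No guard cell, xylem, epidermis or mesophyll marker was under 1 FPKM in all libraries, while 3 phloem and 2 dividing cell markers were. The part of these changes in the aquaporin results was not tested.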

How the data were processed

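Leaf mRNA was sequenced by the authors as paired-end Illumina reads. The labels name another kit than the methods of the study and mouse genome builds, which are of another species. Which assembler, read aligner and counter were run is not given in the sources used here. Raw fragment counts per transcript cluster and library were deposited by the authors and used as they stand. They also deposited FPKM, scaled to cluster length and library size, and the cluster length in bases. Columns of the authors' own comparisons (log2 fold change, p-value, adjusted p-value and call from DESeq2) were not used. No sequences were analysed here.

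Clusters and, separately, counts summed by cluster number and aquaporin type were fitted with edgeR 4.0.16 in R 4.3.3 (TMM over the whole table, quasi-likelihood test, 1 model of 9 libraries with stage as the factor, no filter). Calls required a Benjamini-Hochberg adjusted p under 0.05 over the whole table and a fold of 2. The fit was tested on simulated data. FPKM sums were compared without a test. Bounds against a stage at 0 used a floor of 3 counts per library. Intervals and floors cover counting error only. Members and gene lists, found by words in the first Swiss-Prot name, were chosen with earlier results of these data known. Named with values were the 5 most abundant PIP and 5 TIP numbers, the 3 most abundant NIP and SIP numbers, up to 3 clusters of each, and the 5 largest called changes at 10 FPKM or more per comparison. Of each other gene list, the 2 most abundant members qualified.

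Alternatives were DESeq2 1.42.0, relative log expression size factors, library sizes implied by FPKM, limma 3.58.1 on log2(FPKM + 1) and log2(FPKM + 0.1), a fit of the 2 stages alone, a minimum stage mean of 1 FPKM, a block for the replicate number, calls without the fold threshold, a wider membership rule and each library left out in turn. Keeping only clusters with the Pfam domain and a KEGG aquaporin ortholog was added after seeing the data. Python 3.11.15 with pandas 2.3.3, numpy 2.4.6, SciPy 1.17.1 and matplotlib 3.10.9 did the other steps.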

Additional observations from a re-analysis of the deposited data

How the results depend on the processing

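Counts of called aquaporins kept within 1.5 times of those reported under most alternatives. Requiring the Pfam domain and the KEGG ortholog, a choice made after seeing the data, also left fewer clusters to count. Of the 28 clusters 19 have the domain, and some of these lack the ortholog. This left 0 rising and 9 falling clusters in F2 against F1. In F3 against F2, 2 rose and 14 fell, and in F3 against F1, 1 rose and 14 fell. Without the fold threshold 14 cluster numbers fell in F2 against F1, and limma with either pseudocount gave 1 rising number in F3 against F1. In library-scaled counts the summed log2 ratios were −0.74 for PIP in F2 against F1 and −2.20 in F3 against F1 (−0.65 and −2.05 in FPKM), and for TIP −1.65, −0.79 and −2.44 in F2 against F1, F3 against F2 and F3 against F1 (−1.71, −0.94 and −2.65 in FPKM). With 1 library left out, falling clusters numbered 13 to 16 in F2 against F1, 15 to 19 in F3 against F2 and 18 to 20 in F3 against F1, and rising ones 1 to 1, 4 to 4 and 2 to 3. For cluster numbers the falling counts were 8 to 8, 9 to 11 and 11 to 12 and the rising ones 0 to 0, 2 to 2 and 2 to 2. The 0 rising numbers of F2 against F1 stayed 0 without the fold threshold.

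Of the log2 fold changes of the named clusters and numbers under the alternatives, 1748 kept direction and side of the threshold, 17 passed it newly, 60 no longer passed it and 11 changed sign, each of the 11 being a value that was not called. With limma, number 33845 in F3 against F2 came to 0.0630 and 0.0715, and Cluster-56425.7 in F3 against F2 to −0.0351 with log2(FPKM + 0.1), while the replicate block gave −0.0768 for Cluster-56425.7. With each library left out, Cluster-38802.0 ranged over −0.30 to 0.0282 in F2 against F1, number 41697 over −0.57 to 0.0126 in F2 against F1, Cluster-56425.1 over −0.0369 to 0.22 in F3 against F2 and Cluster-56425.7 over −1.05 to 0.62 in F3 against F2. The cause was not tested. Relative log expression size factors moved the median of all clusters by −0.17 in F2 against F1 and by 0.18 in F3 against F2, and library sizes implied by FPKM moved it by 0.16 in F3 against F2 and 0.12 in F3 against F1. Deviations of same-numbered libraries from their stage means correlated at −0.048 to 0.0674, and 4 of 9 libraries correlated best with their own number. Such values cannot decide whether same-numbered libraries came from the same tree, which is not stated. With the replicate number as a block, 15 clusters fell in F2 against F1, 17 in F3 against F2 and 19 in F3 against F1, the lost call being that of Cluster-56425.0, and the call of number 51498 in F3 against F2 was lost. Low counts limit Cluster-51498.0, Cluster-41697.0 and the clusters of number 56425.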
